A study of Mus musculus with 4 samples.

Results

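The Ly6 and uPAR family is a group of small proteins built on a cysteine-rich fold of finger-like loops, most of them held on the outer face of the plasma membrane by a glycosylphosphatidylinositol (GPI) anchor. Of 8 named genes, namely Ly6g, Ly6a, Ly6c1, Ly6c2, Ly6d, Ly6e, Lypd8 and Plaur, 5 had a probe set whose only gene symbol was theirs, out of 19938 genes measured in this way. These 5 were Ly6g, Ly6d, Ly6e, Lypd8 and Plaur, with 1 probe set each. Ly6c1 and Ly6c2 shared 2 probe sets that the platform annotation assigns to both, and no probe set was named for Ly6a in that annotation, so no value is given for any of these 3 genes alone. The genes were selected with their expression on these arrays already known, so their levels and differences are a description and carry no test.

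The mice were C57BL/6 males, 11 weeks old, on a feed high in fat (40% of energy) and low in calcium for 14 days, which all groups shared. The groups were surface cells of 3 mice whose feed also held 0.5 µmol/g heme, surface cells of 4 control mice without heme, crypt cells of the same 3 heme-fed mice, and crypt cells of the same 4 control mice. Cells were cut from rolled frozen colon by laser capture microdissection, and RNA of the mice in a group was pooled before 1 array was hybridised. With 1 array per group there are no replicates, no p-value or standard deviation, and no way to judge whether a difference exceeds the variation between mice.

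Values are log2 expression from the robust multi-array average (RMA), and a difference of 1 is 2-fold. A gene passed the size rule when it differed at least 2-fold between arrays and lay at 5.75 or above on at least 1 compared array; this floor is the middle of the values of all genes. The words higher and lower refer to this rule where a count is given. The labels of the compartments matched their markers, since on each diet 13 of 14 surface colonocyte genes were higher in surface cells. Of crypt base and dividing cell genes at the floor, 12 of 12 on heme and 13 of 13 on the control diet were lower in surface cells, or 7 and 9 after the ribosomal protein centring described below for Ly6e. In pools of tissue, fewer cells of a type and less RNA per cell cannot be told apart.

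In the mouse, many Ly6 genes lie together in a cluster on chromosome 15, and several of them, including Ly6a, Ly6c and Ly6e, are known as interferon-inducible. Ly6g is best known as the Gr-1 antigen of neutrophils, Ly6c1 and Ly6c2 as markers of endothelium, monocytes and lymphocytes, and Ly6d as a marker of lymphoid progenitors and stratified epithelia. Lypd8 encodes a secreted and GPI-anchored protein of the colonic epithelium that binds flagellated bacteria and keeps them from the inner mucus. Plaur encodes uPAR, the urokinase receptor, which focuses plasminogen activation on the cell surface and binds vitronectin and integrins during migration and wound repair.

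By position in GRCm38.p6, Ly6d (74762056 to 74763567), Ly6e (74955025 to 74959904), Ly6a (74994877 to 74998031), Ly6c1 (75044018 to 75048920), Ly6c2 (75108161 to 75112066) and Ly6g (75155261 to 75159128) follow each other on chromosome 15. Lypd8 lies on chromosome 11 (58379032 to 58390541) and Plaur on chromosome 7 (24460937 to 24475970), next to further family genes. RefSeq promoter sequences were matched for 5 of the 8 genes. The 250 bases before the first listed start site of 4 of them are shown, 5′ to 3′ on the strand of the gene. Ly6g, Ly6c1 and Ly6c2 were taken as related genes of the same cluster, and Plaur because it differed most between the diets in surface cells. These windows hold promoter and not probe sequence, so they do not show whether a probe separates the genes. Capitals mark the letters TATAAA and the AP-1 motif TGANTCA, searched on both strands.
Ly6g (chr15:75155011-75155260, plus strand): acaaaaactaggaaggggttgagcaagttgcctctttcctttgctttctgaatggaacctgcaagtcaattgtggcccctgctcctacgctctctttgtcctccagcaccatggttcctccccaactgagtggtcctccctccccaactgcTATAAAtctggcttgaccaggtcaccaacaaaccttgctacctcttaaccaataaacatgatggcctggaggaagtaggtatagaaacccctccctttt
Ly6c1 (chr15:75048838-75049087, minus strand): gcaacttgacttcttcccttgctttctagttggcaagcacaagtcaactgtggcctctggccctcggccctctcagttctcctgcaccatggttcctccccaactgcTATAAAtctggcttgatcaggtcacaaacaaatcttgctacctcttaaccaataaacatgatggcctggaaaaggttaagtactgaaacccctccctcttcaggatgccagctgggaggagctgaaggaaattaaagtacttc
Ly6c2 (chr15:75111972-75112221, minus strand): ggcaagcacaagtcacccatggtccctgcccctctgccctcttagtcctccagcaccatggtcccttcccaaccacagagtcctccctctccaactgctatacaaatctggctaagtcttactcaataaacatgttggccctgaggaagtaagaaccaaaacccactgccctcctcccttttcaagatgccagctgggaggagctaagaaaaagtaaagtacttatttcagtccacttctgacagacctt
Plaur (chr7:24462233-24462482, plus strand): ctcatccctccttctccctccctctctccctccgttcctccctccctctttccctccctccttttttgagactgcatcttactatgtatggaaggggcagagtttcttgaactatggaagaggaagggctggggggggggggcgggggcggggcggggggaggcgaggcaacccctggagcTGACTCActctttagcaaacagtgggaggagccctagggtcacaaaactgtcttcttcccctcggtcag

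The longest run of identical bases between the Ly6g and Ly6c1 windows was 37. It was 18 between Ly6g and Ly6c2 and 20 between Ly6c1 and Ly6c2, whereas no run with the Plaur window was longer than 11. The letters TATAAA began 99 bases before the start site in Ly6g and 143 bases before it in Ly6c1, and were not in the Ly6c2 window. Before the second listed start site they began at 167 bases in Ly6g and were absent in Ly6c1. The Ly6c1 and Ly6c2 windows also reach into the annotated genes, which end at 75048920 and 75112066. Runs and positions thus depend on the start site taken. The Plaur window held 1 match to TGANTCA, 69 bases before the listed start site. This window begins at 24462233, inside the annotated span of Plaur, which begins at 24460937. The match therefore lies within the gene as annotated and not upstream of it. Of 32851 promoter windows of the same length, 6.75% held TGANTCA and 12.4% held TATAAA. The core of the interferon-stimulated response element, found in 2.98% of windows, the interferon gamma-activated motif TTCNNNGAA, found in 7.02%, and the antioxidant response core TGACNNNGC, found in 10.2%, were in none of the 4 windows shown. A match or its absence describes the letters in a window and nothing about the factors.

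Ly6g had the widest range of the 5 measured genes, and its level separated the surface from the crypt pools. Its level was 12.35 in heme surface cells and 11.54 in control surface cells, against 7.25 in heme crypt cells and 4.85 in control crypt cells. Both surface arrays were high, the heme crypt array was intermediate and the control crypt array lay below the floor. Surface against crypt cells gave 5.11 on heme (34.5-fold, rank 3 of 10698 genes) and 6.69 on the control diet (103-fold, rank 1 of 10864). Since the control crypt value was below the floor, the control diet size is uncertain, and with log2(2^value + 32), which damps low values, it was 5.63. Heme against control gave 0.81 in surface cells, short of 2-fold, and 2.39 (5.26-fold) in crypt cells, rank 2 of 10491, or 1.59 with the damped scale. Ly6g, Ly6g2, Ly6c1 and Ly6c2 are similar in sequence, and how far the Ly6g probe set also reads its neighbours is uncertain.

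The crypt difference of Ly6g came with higher levels of surface colonocyte genes in the same pool. Of 14 such markers, 7 were higher in heme than in control crypt cells and none was lower, where 1.78% of all genes were higher and 1.19% lower. The median difference of the 14 was 0.98 against 0.01 over all 10491 genes. The 7 included the water channel gene Aqp8 (9.90 in heme and 7.34 in control crypt cells), the sodium-proton exchanger gene Slc9a3 (9.24 and 7.20), the carbonic anhydrase gene Car1 (11.98 and 10.28) and Tmigd1 (7.51 and 5.83). The part of these cells in the Ly6g difference was not tested. Lypd8, also higher in surface cells, differed by 0.01 in the crypt pools.

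Genes that define neutrophils were near the bottom of the scale on every array. Of 15 measured markers, 14 lay below the floor on all 4 arrays, among them the calprotectin genes S100a8 and S100a9. S100a8 read 3.98 in heme surface and 3.64 in control surface cells, against 3.66 in heme crypt and 3.67 in control crypt cells. Ncf1, a subunit gene of the phagocyte oxidase, reached the floor on 3 arrays, with values of 5.71 to 5.86. The summed linear signal of the 15 markers was 328 in heme surface cells and 299 in control surface cells, against 293 in heme crypt cells and 304 in control crypt cells. Below the floor the size rule could not call these 14 markers whatever their differences, so only their levels are given.

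Plaur was the member with the largest heme difference in surface cells. Its level was 9.55 in heme surface cells and 6.99 in control surface cells, against 6.13 in heme crypt cells and 5.50 in control crypt cells. The heme surface array stood above the other 3, and the control crypt array was below the floor. Heme against control gave 2.55 (5.87-fold) in surface cells, rank 41 of 10282 genes, and 0.63 (1.55-fold) in crypt cells. Surface against crypt cells gave 3.42 (10.7-fold) on heme and 1.49 (2.81-fold) on the control diet, and the control diet difference was 1.04 on the damped scale.

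Ly6d was at the floor on a single array. Its level was 7.64 in heme surface cells and 5.48 in control surface cells, against 5.68 in heme crypt cells and 5.05 in control crypt cells. The heme surface value stood apart, and the remaining 3 lay below the floor. Heme against control gave 2.16 (4.48-fold) in surface cells, rank 65 of 10282, and 1.60 on the damped scale. Surface against crypt cells on heme gave 1.96 (3.88-fold), while the differences of 0.64 in crypt cells and 0.43 on the control diet were between values below the floor.

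Ly6e had the opposite order of the compartments. Its level was 9.0 in heme surface cells and 9.68 in control surface cells, against 10.15 in heme crypt cells and 10.80 in control crypt cells. Heme values were lower than control values in both compartments by less than 2-fold, at -0.68 in surface cells and -0.65 in crypt cells. Surface against crypt cells gave -1.14 on heme and -1.12 on the control diet, lower by the size rule, but these turned to 0.0074 and 0.15 with the levels of 61 ribosomal protein genes set equal between arrays, here called ribosomal protein centring. That centring moved the median of all genes to 1.10 on heme and 1.22 on the control diet, so Ly6e stayed below that median.

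Lypd8 was high on every array, and its values separated the compartments and not the diets. Its level was 13.41 in heme surface cells and 13.37 in control surface cells, against 11.57 in heme crypt cells and 11.56 in control crypt cells. The surface arrays lay above the crypt arrays by 1.84 (3.57-fold) on heme and 1.81 (3.50-fold) on the control diet. Heme against control differed by 0.05 in surface cells and 0.01 in crypt cells, the smallest differences among the 5 genes on this scale, and by -0.18 in surface cells after cyclic loess normalization. Values near the top of the array's range can be compressed, and no check of saturation was made.

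The 2 probe sets shared by Ly6c1 and Ly6c2 had one pattern. Probe set 10429568 read 11.11 in heme surface cells and 9.55 in control surface cells, against 8.02 in heme crypt cells and 8.49 in control crypt cells. Probe set 10429573 read 9.85 in heme surface cells and 8.33 in control surface cells, against 7.18 in heme crypt cells and 7.36 in control crypt cells. Both were highest in heme surface cells and lowest in heme crypt cells. Heme against control gave 1.56 and 1.52 in surface cells (2.95-fold and 2.87-fold), and -0.47 and -0.18 in crypt cells. Which of the genes gave the signal cannot be told apart on these probe sets.

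Endothelial and monocyte genes, whose cells are known to carry Ly6C, were measured beside them. The summed linear signal of 12 endothelial markers was 2044 in heme surface cells and 2057 in control surface cells, against 874 in heme crypt cells and 1364 in control crypt cells. None of the 12 passed the size rule for heme in surface cells, where 5.63% of all genes did, and their median difference was 0.04. In crypt cells 2.97% of all genes passed. There Cd34 (-1.20) passed of 11 at the floor (median -0.62), though not on the damped scale. For 15 monocyte and macrophage markers the sums were 1428 in heme surface and 1100 in control surface cells, against 892 in heme crypt and 1247 in control crypt cells. Of the 9 at the floor, none passed in surface cells (median 0.26) and the receptor gene Csf1r (-1.02) passed in crypt cells (median -0.65), though again not on the damped scale, while Ccr2, which marks Ly6C-high monocytes, was below the floor on all 4 arrays. Since these lists are short, nothing is read from their counts. The part of endothelial cells and monocytes in the crypt values of the shared probe sets was not tested.

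**Figure D1:**
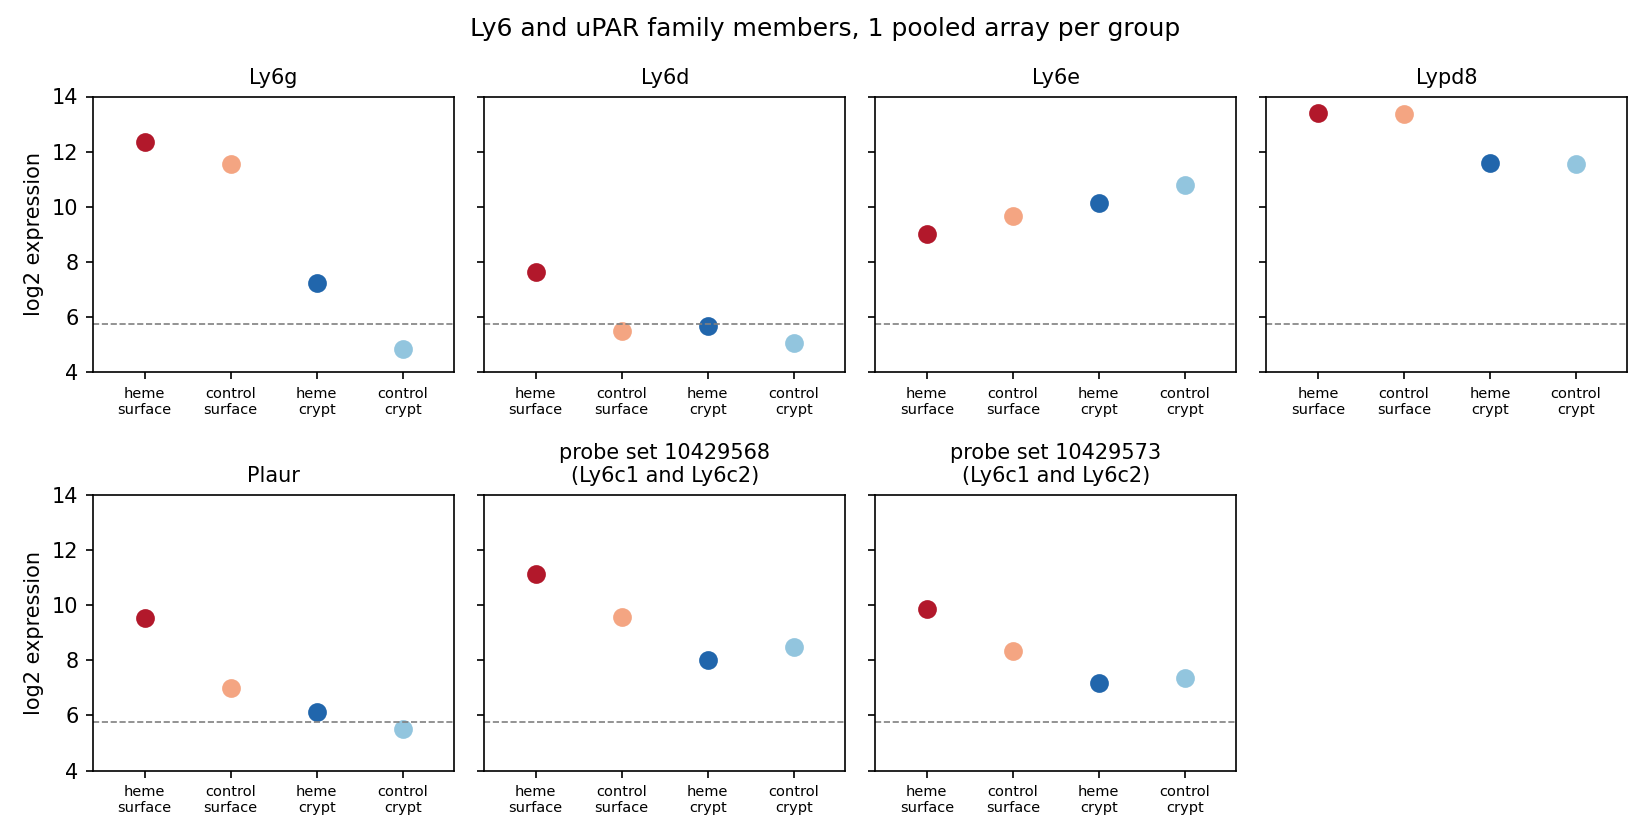
Log2 expression (vertical axis) of the 5 members with a probe set of their own and of the 2 probe sets shared by Ly6c1 and Ly6c2 on the 4 arrays (horizontal axis), 1 point per pooled array, with the floor of 5.75 as a dashed line. Ly6g, Lypd8, Plaur and the shared probe sets read higher on both surface arrays than on both crypt arrays. On the control diet this was short of 2-fold for probe set 10429573 (0.97). Plaur and Ly6d stood out on the heme surface array, and Ly6e was highest on the crypt arrays.

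Set against the whole series, the members were counted as follows. In surface cells 2 of 5 members were higher on heme and none was lower, where 3.62% of 10282 genes were higher, 2.01% lower and 5.63% either, and the members' median difference was 0.81 against -0.02 for all genes. In crypt cells 1 of the 4 members at the floor was higher and none lower, where 1.78% of 10491 genes were higher, 1.19% lower and 2.97% either, with medians of 0.32 and 0.01. Surface against crypt cells on heme gave 4 members higher and 1 lower of 5, where 15.3% of 10698 genes were higher, 16.5% lower and 31.8% either. On the control diet the count was 3 higher and 1 lower of 4 at the floor, where 12% of 10864 genes were higher, 13.5% lower and 25.5% either. Ly6d reached the floor on the heme surface array alone. It is thus in the surface cell count and the heme diet count through the group in which it was high. Since the genes were chosen with these values known, nothing is read from the difference between the members' shares and those of all genes.

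After centring on ribosomal protein genes, 5891 genes were higher and 327 lower in surface against crypt cells on heme, against 1637 and 1763 without it, and 6644 were higher and 118 lower on the control diet, against 1301 and 1464. For heme against control in crypt cells that centring gave 266 higher and 78 lower, against 187 and 125 without it, and moved the median of all genes to 0.13. Under it 4 members were higher and none lower in surface against crypt cells on heme, and 3 were higher and none lower on the control diet.

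The heme effect differed between the compartments by at least 2-fold for 3 of the 5 genes, 2 upward and 1 downward, where 5.46% of 11147 genes did so, 3.29% upward and 2.17% downward (367 and 242 genes, or 284 and 348 after ribosomal protein centring). Subtracting the crypt from the surface difference gave 1.92 for Plaur, 1.53 for Ly6d and -1.58 for Ly6g. It was 0.03 for Lypd8 and -0.02 for Ly6e. For Ly6g the value was -0.79 on the damped scale, which no longer passes the size rule. The shared probe sets gave 2.03 and 1.70. These values use the same 4 arrays as the comparisons above and add no independent measurement. Ly6d is among the 5 genes only through the heme surface array, in which it was high.

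**Figure D2:**
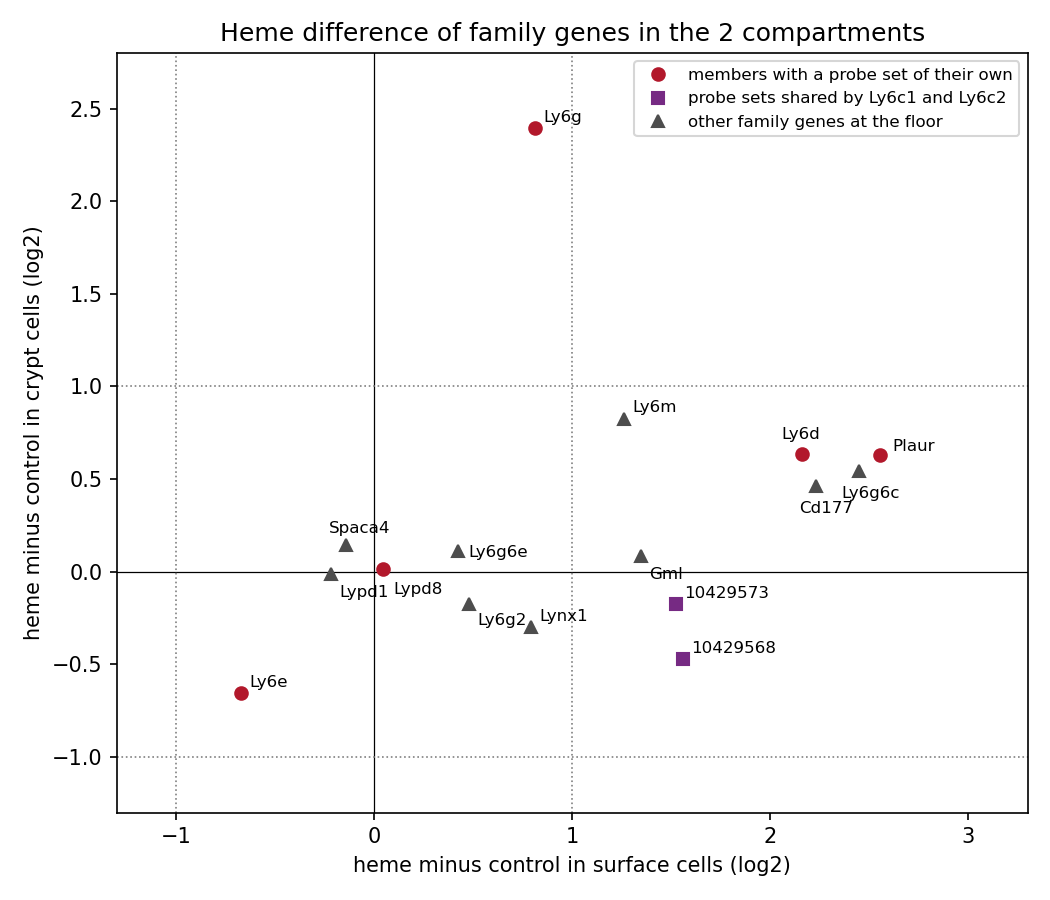
Heme minus control difference on the log2 scale in surface cells (horizontal axis) and in crypt cells (vertical axis), with 1 point per gene or probe set and dotted lines at 2-fold. Ly6g stands alone in the upper part at 2.39 in crypt cells, Plaur, Ly6d, Ly6g6c and Cd177 lie to the right at 2.16 to 2.55 in surface cells, and Ly6e lies below 0 on both axes.

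Most of the remaining family was not above the floor. Of 37 further genes listed, 33 were measured and 24 lay below the floor on all 4 arrays, including the complement regulator genes Cd59a and Cd59b and Psca. Of the 9 at the floor in surface cells, 4 were higher on heme and none was lower, where 3.62% of all genes were higher. Their median difference was 0.79, or 0.50 on the damped scale, and it was 0.05 over all 33 measured genes without the floor. Lynx1 and Gml reached the floor on the heme surface array alone, so they are among the 9 through the group in which they were high. None of 4 passed in crypt cells, where 2.97% of all genes did.

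Ly6g6c, a family gene in the major histocompatibility region on chromosome 17, read 8.39 in heme surface cells and 5.94 in control surface cells, against 4.94 in heme crypt and 4.39 in control crypt cells. It thus stood out on the heme surface array, with a heme difference of 2.45 there (1.97 damped). Cd177, a surface protein gene of neutrophils with Ly6 and uPAR domains, read 8.87 in heme surface cells and 6.64 in control surface cells, against 10.41 in heme crypt and 9.95 in control crypt cells. It was highest in the crypt pools, where the neutrophil markers above were below or at the floor, and differed by 2.23 on heme in surface cells. Surface against crypt cells gave -1.55 for Cd177 on heme and -3.31 on the control diet, and the heme-diet difference was -0.40 after ribosomal protein centring.

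Ly6m lay next to Ly6e on chromosome 15 and ran against it. Its level was 10.85 in heme surface cells and 9.59 in control surface cells, against 6.13 in heme crypt cells and 5.31 in control crypt cells. The heme difference was 1.26 in surface cells and 0.83 in crypt cells, and surface against crypt cells gave 4.72 on heme and 4.28 on the control diet. Ly6g2, the next gene after Ly6g, read 8.47 in heme surface cells and 7.99 in control surface cells, against 4.60 in heme crypt cells and 4.78 in control crypt cells. It shared with Ly6g the high surface values. Its heme difference in crypt cells was -0.18, but both crypt values lay below the floor, so this sets no reliable size. The other family genes at the floor, Lynx1, Lypd1, Ly6g6e and Spaca4, did not pass the size rule in any of the 4 comparisons of heme with control or surface with crypt cells. Gml reached 5.94 in heme surface cells against 4.59 in control surface cells, a difference of 1.35 that was 0.73 on the damped scale.

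Along the cluster from Psca to Gpihbp1 (chromosome 15, 74714839 to 75598213), 29 protein-coding genes are annotated, of which 21 were measured and 7 reached the floor. Those 7 were Lynx1, Ly6d, Gml, Ly6m, Ly6e, Ly6g and Ly6g2. In surface cells 3 of them were higher on heme and in crypt cells 1 was, with none lower in either, where 3.62% and 1.78% of all genes were higher. Of those 3, Ly6d and Gml reached the floor on the heme surface array alone. Neighbours did not share one direction, since on the control diet Ly6e was lower in surface cells (0.15 after ribosomal protein centring) while Ly6m, Ly6g and Ly6g2 were higher. The region was chosen for display after the values had been seen.

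**Figure D3:**
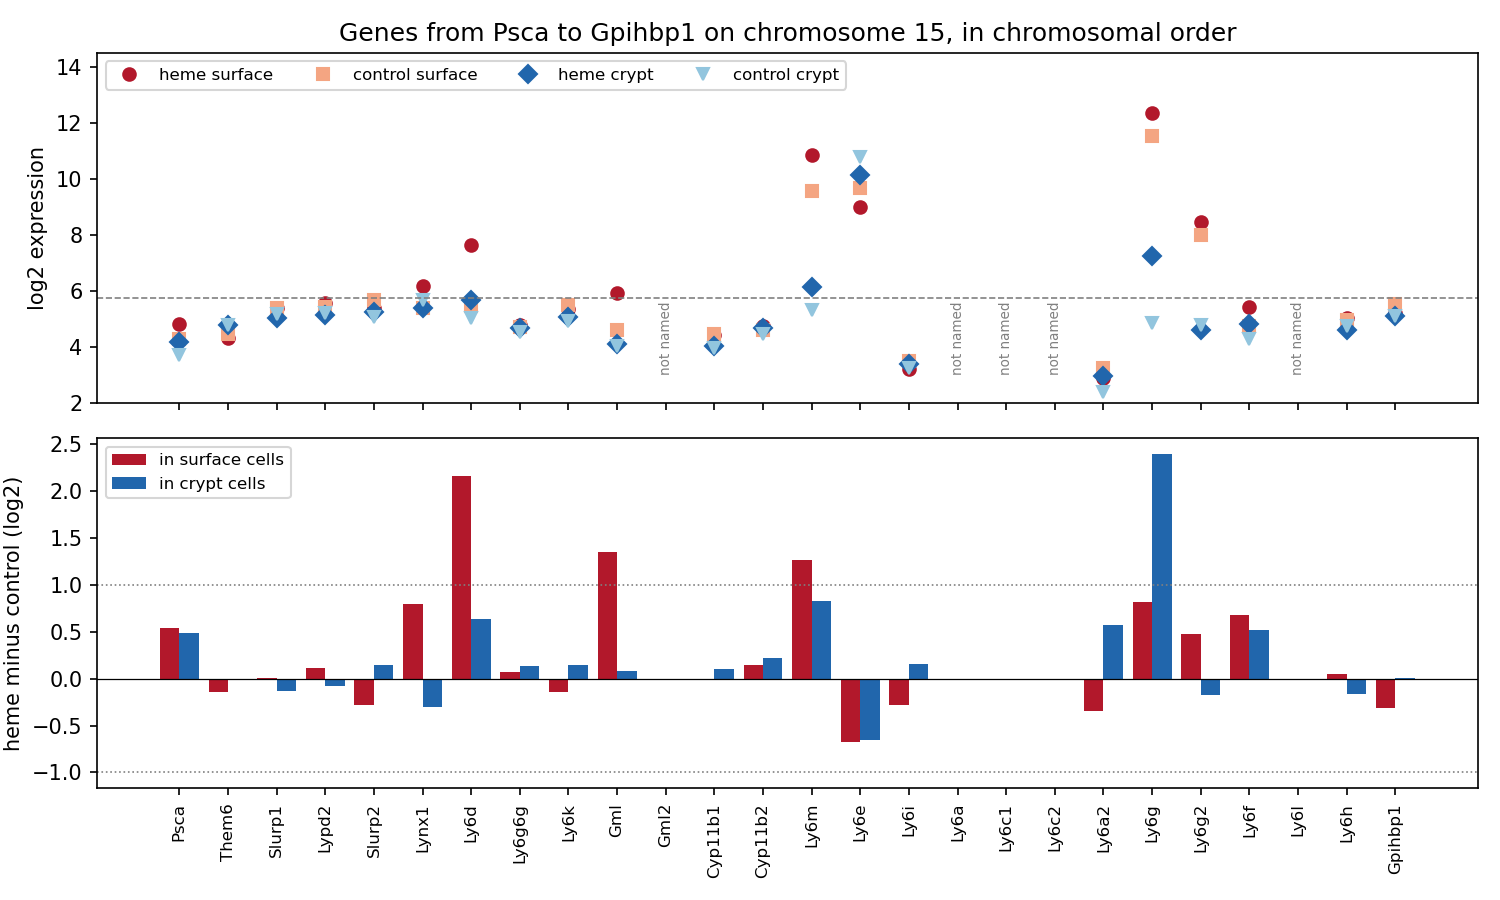
Upper panel, log2 expression on the 4 arrays for genes in chromosomal order from Psca to Gpihbp1, with the floor dashed, genes without a probe set of their own marked as not named and 3 predicted genes left out. Lower panel, heme minus control difference (log2) in surface and in crypt cells as bars from 0, with dotted lines at 2-fold; Ly6d, Gml and Ly6m pass 2-fold in surface cells and Ly6g in crypt cells.

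On chromosome 7, 21 protein-coding genes lie from Lypd5 to Lypd4 (24349196 to 24869924), with Plaur among them. Of these, 9 reached the floor, and 2 were higher on heme in surface cells, Plaur and Cd177, where 3.62% of all genes were higher. The genes of this stretch were also named after their values had been seen. The family genes Lypd3, Lypd4, Lypd5, Lypd10, Lypd11, Pinlyp and Tex101 in this stretch lay below the floor on all 4 arrays.

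Among the partners of uPAR, both plasminogen activators were higher on heme in surface cells, where 3.62% of all genes were higher and 2.01% lower. Plat, the tissue-type activator gene, read 7.40 in heme surface cells and 4.72 in control surface cells, against 4.44 in heme crypt cells and 4.52 in control crypt cells. It reached the floor on the heme surface array alone, with a difference of 2.68 there, or 1.78 damped. Plau, which encodes urokinase, the ligand of uPAR, read 8.91 in heme surface cells and 7.64 in control surface cells, against 5.55 in heme crypt cells and 5.57 in control crypt cells. Its surface values were the higher ones on both diets, and heme differed from control by 1.27 in surface cells and by -0.01 in crypt cells. Fn1, the fibronectin gene, was the 1 of 14 genes at the floor that was lower on heme in surface cells (-1.08, or -0.96 damped). It was also the 1 of 10 that was lower in crypt cells (-1.15), where 1.19% of all genes were lower. The list median was 0.29 in surface cells, or 0.19 damped, and -0.25 in crypt cells, or -0.12 after ribosomal protein centring.

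Genes of regenerative and fetal-like epithelium, a state in which Ly6a is a known marker and Plaur is often found, were also counted in surface cells. Of 11 at the floor, 4 were higher and none was lower, where 3.62% of all genes were higher and 2.01% lower. The median difference of the 11 was 0.98, or 0.85 on the damped scale, against -0.02 over all genes. The 4 were Ereg, encoding the growth factor epiregulin (8.55 in heme and 5.01 in control surface cells), the cornified envelope gene Sprr1a (10.49 and 8.34), the prostaglandin synthase gene Ptgs2 (9.41 and 7.50) and the annexin gene Anxa1 (11.71 and 10.69). Ereg lay below the floor in control surface cells, so it is among the 11 through the group in which it was high. In crypt cells, where 1.78% of all genes were higher and 1.19% lower, Sprr1a (1.02) was higher and Ccn2 (-1.10) lower of 8. Neither passed on the damped scale. The median there was -0.04, or 0.09 after ribosomal protein centring.

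Interferon response genes ran the other way from the Ly6c probe sets in surface cells. Of 21 at the floor, 10 were lower on heme and none was higher, where 2.01% of all genes were lower and 3.62% higher. The median difference of the list was -0.76, or -0.62 on the damped scale, against -0.02 over all genes. Oasl2, an oligoadenylate synthase-like gene, read 7.19 in heme and 9.41 in control surface cells, Irf7, the interferon regulator gene, 7.70 and 9.90, Oas2 4.63 and 6.82, and the RNA sensor gene Ddx58 6.28 and 7.80. In crypt cells none of 15 passed, where 2.97% of all genes did. The median there was -0.27, or -0.15 after ribosomal protein centring. Of the interferon-inducible members, Ly6e differed from control in the same direction as this list in surface cells (-0.68) and the shared Ly6c probe sets in the opposite one (1.56 and 1.52). Ly6e differed by a similar amount in crypt cells (-0.65), where the list median was -0.27. On the control diet Ly6e was lower in surface than in crypt cells (-1.12), while the list median was 1.24. After ribosomal protein centring Ly6e was not lower, and the list median was 2.51.

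Genes of the machinery that builds and attaches the GPI anchor were counted in the same way. Of 27 genes at the floor, 1 was higher in surface cells, which is near the share of all genes that were higher (3.62%). None passed in crypt cells, where 2.97% of all genes did. The medians were 0.09 in surface and 0.04 in crypt cells, against -0.02 and 0.01 over all genes. The 1 gene was Pgap1, which encodes an enzyme that removes the inositol acyl chain from the anchor after attachment. It read 9.20 in heme surface cells and 7.20 in control surface cells, against 7.01 in heme crypt cells and 7.11 in control crypt cells.

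**Figure D4:**
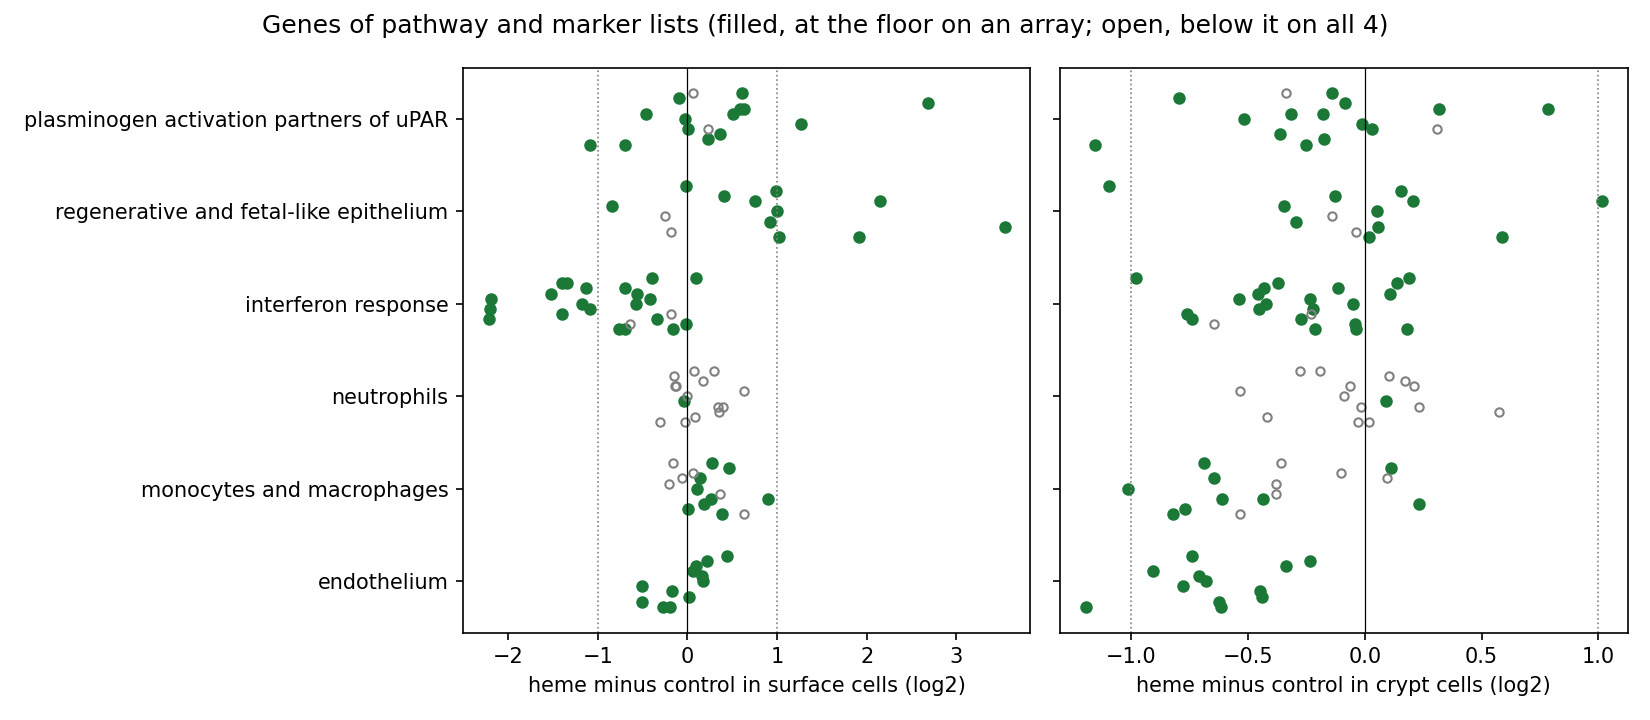
Heme minus control difference on the log2 scale (horizontal axis) in surface cells (left) and crypt cells (right) for genes of 6 lists (rows, with points spread vertically for legibility), 1 point per gene, filled where the gene reached the floor on at least 1 of the 4 arrays. In surface cells the plasminogen and regenerative lists extend to the right up to Plat (2.68) and Ereg (3.54), the interferon list extends to the left down to -2.22, and the neutrophil list is nearly all below the floor.

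For T, B and plasma cells, 3 of 14 measured markers reached the floor in surface cells and 2 in crypt cells, and none passed for heme. Of all genes, 5.63% passed in surface cells and 2.97% in crypt cells. Over all 14 without the floor the median difference was 0.02 in surface and 0.05 in crypt cells. Of smooth muscle and fibroblast markers, none of 12 passed in surface cells (median -0.52). In crypt cells 3 of 14, Dcn, Lum and Vim, were lower on heme than on control (median -0.71), where 1.19% of all genes were lower. Of crypt base and dividing cell genes, none of 9 passed in surface cells, and in crypt cells Ccna2 was higher and Lgr5 lower of 13, the Lgr5 difference not passing on the damped scale or after ribosomal protein centring. The part of these cell types in the differences of the Ly6 and uPAR genes was not tested.

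The genes whose pattern over the 4 arrays lay closest to each member were found by the Euclidean distance between log2 values centred on each gene's mean, among 10804 genes at the floor. With 4 values per gene this is a description of shape and implies no shared control. For Plaur the nearest was the family gene Ly6g6c at a distance of 0.11, followed by the actin-capping gene Capg (0.21) and the acyl-CoA thioesterase gene Acot4 (0.39). For Ly6g the nearest was the proton pump gene Atp12a (0.56), with the peptide transporter gene Slc15a1 (1.59) and Cyp2d12 (1.68) much farther away. Atp12a read 12.05 in heme surface cells and 11.56 in control surface cells, against 7.32 in heme crypt cells and 5.34 in control crypt cells.

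For Ly6d the nearest were Trim29 (0.17), the activity-regulated gene Arc (0.18) and the peroxisomal oxidase gene Acox2 (0.20), each above the floor on the heme surface array. For Ly6e they were the vitamin transporter gene Slc5a6 (0.06), Rassf4 (0.08) and Aopep (0.09). For Lypd8 they were Spint1, encoding a membrane-bound inhibitor of serine proteases (0.05), Fam161a (0.05) and the myosin gene Myo18a (0.08). Ly6e and Lypd8, which varied less over the arrays than Ly6g and Plaur, had the smallest distances.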

How the data were processed

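Expression was measured on 4 Affymetrix arrays, 1 per pool, from 100 ng of RNA labelled with a whole-transcript kit, per the labels' protocols. The deposited file holds the authors' log2 value for each probe set; the submitters' processing notes name RMA. Neither the version of RMA nor which arrays were summarised jointly is stated in the labels used. Having 4 arrays limits precision.

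Of 35556 probe sets, 21789 had 1 gene symbol in the platform annotation, 1621 several and 12146 none. Symbols were updated by gene identifier to GRCm38.p6 for 21698. Values of single-symbol probe sets were averaged to 19938 genes. Probe sequences were not used here, so cross-hybridisation between similar Ly6 genes could not be checked.

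With 1 array per group no test was run. The size rule required a log2 difference of at least 1 and a value at or above 5.75 on a compared array. Its calculation was checked on simulated arrays with large planted differences in genes well above the floor. That check does not cover genes near the floor or the variation between mice. The members and the 12 gene lists were chosen with earlier results of these data known. Named genes are the members, family genes passing the size rule, up to 4 genes per list with the largest differences, and the 3 nearest genes by pattern. Marker genes that did not pass, and the genes of the chromosomal regions, were named after their values were seen. Alternatives were no floor, log2(2^value + 32), the brightest probe set per gene, centring on ribosomal protein genes and cyclic loess. Python 3.11.15, numpy 2.4.6, pandas 2.3.3, Biopython 1.88, matplotlib 3.10.9, R 4.3.3 and limma 3.58.1 were used. Promoters are from RefSeq.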

Additional observations from a re-analysis of the deposited data

Results flagged for a closer look

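Both probe sets shared by Ly6c1 and Ly6c2 had opposite signs of the heme difference in the compartments. Probe set 10429568 differed by 1.56 in surface cells and by -0.47 in crypt cells, and probe set 10429573 by 1.52 and -0.18. The crypt values are under 2-fold, each group is 1 array, and the difference between the compartments was not tested.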

How the results depend on the processing

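For the 5 measured genes and the 2 shared probe sets, 35 differences were recomputed under 5 alternatives, and 169 of the 175 values stayed on their side of the size rule, with the direction kept where they had passed it. Among differences short of it, Lypd8 for heme in surface cells turned to -0.18 with cyclic loess. Centring on ribosomal protein genes reversed Ly6e for surface against crypt cells to 0.0074 on heme and 0.15 on the control diet, as it shifts every surface value upward against crypt values. With log2(2^value + 32), the compartment difference of the heme effect for Ly6g (-0.79) and the surface against crypt difference of probe set 10429568 on the control diet (1.00) no longer passed, while probe set 10429573 passed in that comparison with ribosomal protein centring (2.24) and cyclic loess (1.05). The counts of members past the size rule stayed within 1.5 times under all 5 alternatives. Ribosomal protein centring gave 4 in place of 5 for surface against crypt cells on heme and 3 in place of 4 on the control diet, and log2(2^value + 32) gave 2 in place of 3 for the compartment difference. Over all genes, log2(2^value + 32) left 158 in place of 312 for heme in crypt cells and 359 in place of 609 for the compartment difference, and ribosomal protein centring gave 6218 in place of 3400 for surface against crypt cells on heme and 6762 in place of 2765 on the control diet. Interferon genes higher in control surface cells against control crypt cells numbered 15, and 8 with log2(2^value + 32). No paired analysis was possible because each group has 1 pooled array. No replicate could be left out for the same reason, and values below the floor set no reliable size.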

Other observations

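On the control diet the comparison of surface with crypt cells also covered the pathway lists. Of 21 interferon response genes at the floor, 15 were higher in surface cells and none was lower, where 12% of all genes were higher and 13.5% lower. The median difference of the list was 1.24. The genes with the largest differences were Irf7 (3.97), Ifit1 (3.62), Oasl2 (3.41) and Rsad2 (2.54). On heme, 7 of 17 were higher, where 15.3% of all genes were higher, and the median of the list was 0.57. After ribosomal protein centring the medians were 1.72 on heme and 2.51 on the control diet, and on the damped scale 0.37 and 0.87. Rsad2, which encodes the antiviral enzyme viperin, read 7.16 in heme surface and 7.18 in control surface cells, against 4.61 in heme crypt and 4.65 in control crypt cells, and so did not share the lower heme values of Oasl2 and Irf7.

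Of the uPAR partners, 7 of 13 were higher in surface against crypt cells on heme and 5 of 12 on the control diet, with none lower, where 15.3% and 12% of all genes were higher. The medians were 1.01 on heme and 0.86 on the control diet, 2.16 and 2.13 after ribosomal protein centring, and 0.51 and 0.31 over all 16 measured genes without the floor. Besides Plau, and Plat on heme, they included the integrin alpha V gene Itgav (2.23 on heme and 1.48 on the control diet) and Lrp1 (1.72 and 1.23), encoding the endocytic receptor that clears uPAR with its bound inhibitor.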
